A study of Mus musculus with 36 samples.

Results

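Cardiomyocytes isolated from newborn mouse hearts were compared with whole ventricles of the same age, postnatal day 0 (P0), by RNA sequencing. The comparison took in every deposited library of these 2 groups, 5 of the 36 libraries of the series: 3 of isolated P0 cardiomyocytes, purified on Miltenyi columns, and 2 of undissociated P0 ventricular myocardium. All 5 came from CD-1 mice, with no transgene, operation or drug named in the labels. The isolated cells are labelled as coming from the myocardium and the tissue as ventricular, and the isolated group may hold atrial cells. How many hearts were pooled for a library is not given in the sources used here, and neither is which of the 2 library kits was used for which sample, so that kit and cell preparation cannot be told apart. Nothing says that replicates came from separate litters, and the p-values measure only the spread between these libraries. The series concerns the neonatal heart, which regrows muscle after injury, and the comparison bears on how pure the isolated cells were and on which genes of the newborn ventricle belong to its cardiomyocytes.

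Cardiomyocytes make up most of the mass of the ventricle, but the tissue also holds endothelial and endocardial cells, fibroblasts, pericytes, epicardium, macrophages and blood. Newborn cardiomyocytes still divide, carry slow skeletal and other fetal isoforms of contractile proteins beside the cardiac ones, and are changing from glycolysis to fatty acid oxidation. Immediate early genes, whose transcripts appear within minutes of a stimulus, are known to respond to tissue dissociation. In bulk libraries, fewer cells of a type and less RNA per cell cannot be told apart.

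Expression is given as FPKM, fragments per kilobase of transcript, relative to all mapped fragments, as deposited, and differences are isolated minus ventricle on the log2(FPKM + 1) scale, which understates the change of genes at low levels. A gene was tested when it reached 1 FPKM in at least 2 of the 5 libraries, and called when limma's two-sided test gave a Benjamini-Hochberg adjusted p under 0.05 over all 12920 genes tested. FPKM is a share of a library. Transcripts of the mitochondrial genome took 45.9%, 45.1% and 32.2% of the summed FPKM in the isolated libraries, against 14.6% and 22% in the ventricle libraries. Gm10925 and Gm10222, gene models on chromosome 1 that carry copies of mitochondrial sequence, took another 13.6%, 13.5% and 10.3% in the isolated libraries, against 2.29% and 5.22% in ventricle. Globin took 3.57% in isolated replicates 1 and 2 and 0.215% in replicate 3, against 0.324% and 0.282% in ventricle. The median difference over all genes tested was -0.62 (log2). On this scale 187 genes were higher (1.45% of those tested) and 8820 lower (68.3%). After median-of-ratios scaling, which sets the typical gene to the same level in each library, the median difference was 0.01, and 1928 genes were higher (14.9%) and 1640 lower (12.7%). After quantile normalization 1547 were higher (12%) and 1608 lower (12.4%), and after rescaling without globin and mitochondrial genes 324 were higher (2.51%) and 6464 lower (50%). Higher calls thus made up 2.08% of all calls on the deposited scale, 54% after median-of-ratios scaling, 49% after quantile normalization and 4.77% after rescaling without globin and mitochondrial genes. Without ventricle replicate 2 the higher calls on the deposited scale numbered 103, and without ventricle replicate 1 the lower calls 5027. The libraries did not overlap for 281 genes higher in isolated cells (2.17%) and 10241 lower (79.3%). Differences below are read against the median of -0.62, and the value after median-of-ratios scaling, called the scaled difference, is set beside them.

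The 3 isolated libraries were not equal. Replicates 1 and 2 were the closest of the 24 replicate pairs in the series, with a median absolute difference of 0.07 (log2), and replicate 3 stood apart from both. It carried more endothelial RNA and less globin and fibrillar collagen RNA, as described with each group. Without replicates 1 and 2, 139 genes were higher and 3612 lower. Sequencing depth is unknown because only FPKM was deposited, so whether replicates 1 and 2 differ by more than sampling noise was not tested.

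Markers of non-muscle cells were among the genes most reduced in isolated cells, while most genes of the contractile machinery stayed near the typical gene on the deposited scale. Endothelial, endocardial and fibroblast markers fell in 24 of 24 tested cases on the deposited scale, beside 68.3% of all genes. After median-of-ratios scaling 17 of the 24 were lower, beside 12.7% of all genes. Of the 24, 23 would have passed the filter in the isolated libraries alone. No member of these lists was higher on either scale. The lists are short and were written with earlier results of these data known, so their counts describe the preparation and carry no test of their own.

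**Figure D1:**
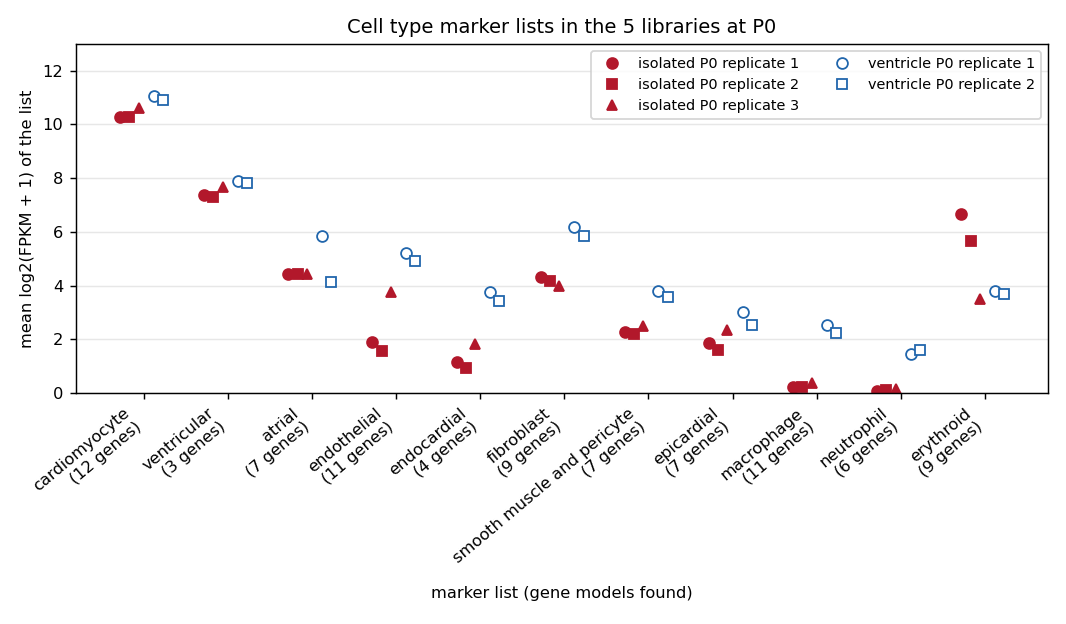
Mean log2(FPKM + 1) of each cell type marker list in the 3 isolated P0 libraries (red, filled) and the 2 ventricle P0 libraries (blue, open); each point is 1 library. The endothelial list averaged 1.89, 1.57 and 3.75 in isolated replicates 1, 2 and 3, against 5.21 and 4.93 in ventricle, and the cardiomyocyte list 10.29, 10.26 and 10.61, against 11.06 and 10.89.

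Endothelial RNA differed among the isolated libraries. Cdh5, which encodes the junction protein VE-cadherin, had 3.49, 2.75 and 25.5 FPKM in isolated cells, against 77.0 and 59.9 FPKM in ventricle. It was lower in every isolated library, but by far less in replicate 3 than in the other two (difference -3.17 ± 0.59 SE, adjusted p = 0.00102; scaled difference -2.48, adjusted p = 0.0486). Tie1, an endothelial receptor kinase, had 1.65, 0.935 and 9.97 FPKM in isolated cells, against 37.7 and 27.3 FPKM in ventricle (difference -3.11). Kdr, the main receptor of vascular endothelial growth factor, had 2.04, 1.47 and 16.9 FPKM, against 39.7 and 36.1 FPKM in ventricle (difference -2.92), and Cldn5, a tight junction protein, 2.30, 2.06 and 17.6 FPKM, against 43.1 and 31.1 FPKM in ventricle (difference -2.72). All 11 endothelial markers showed this order. On the deposited scale the median marker stood at 8.03%, 5.56% and 37.3% of its mean ventricle level in isolated replicates 1, 2 and 3. After median-of-ratios scaling it stood at 14.7%, 10.2% and 54.2%. All 11 were also called lower with both globin-rich libraries left out, where replicate 3 stood alone on the isolated side and was taken to vary like the ventricle libraries, but the median difference was then -1.35 in place of -2.64. Other genes that endothelium expresses and that were among the 15 largest decreases moved in the same way. The apelin receptor gene Aplnr had 1.44, 1.06 and 9.18 FPKM in isolated cells, against 31.7 and 29.2 FPKM in ventricle, and the semaphorin receptor gene Plxnd1 3.09, 2.36 and 15.6 FPKM, against 53.4 and 41.6 FPKM in ventricle.

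Endocardial markers fell in 4 of 4 cases on both scales. Plvap, a component of the diaphragms of fenestrated endothelium, had 1.24, 0.642 and 2.75 FPKM in isolated cells, against 20.03 and 14.35 FPKM in ventricle (difference -2.90 ± 0.29 SE, adjusted p = 3.61e-05). Npr3, the natriuretic peptide clearance receptor that marks endocardium in the mouse, had 1.28, 1.00 and 1.999 FPKM, against 11.6 and 9.97 FPKM in ventricle (difference -2.30 ± 0.21 SE, adjusted p = 1.79e-05). Neither gene overlapped between the groups.

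Fibroblast markers fell in 9 of 9 cases on the deposited scale and in 5 of 9 after scaling, and here replicate 3 was the lower one for the abundant matrix genes. Col1a1, a chain of type I collagen, had 74.5, 68.0 and 57.5 FPKM in isolated cells, against 368.0 and 253.2 FPKM in ventricle (difference -2.19 ± 0.19 SE, adjusted p = 1.5e-05; scaled difference -1.43, adjusted p = 0.00915). Col3a1 had 103, 88.6 and 78.0 FPKM, against 406.0 and 268.2 FPKM in ventricle (difference -1.88). Both collagens were lower in every isolated library. Dcn, the proteoglycan decorin, had 84.0, 74.97 and 42.1 FPKM, against 121.1 and 111.0 FPKM in ventricle (difference -0.84, adjusted p = 0.00962; scaled difference -0.09, adjusted p = 0.877). Decorin was thus reduced little more than the typical gene. Tcf21, a transcription factor of cardiac fibroblasts and their progenitors, went the other way among replicates, with 1.55, 1.14 and 3.09 FPKM in isolated cells, against 21.9 and 16.9 FPKM in ventricle (difference -2.85 ± 0.26 SE, adjusted p = 1.63e-05). Mfap5, a microfibril protein, had 1.65, 1.69 and 3.64 FPKM, against 21.0 and 15.4 FPKM in ventricle (difference -2.56). On the deposited scale the median fibroblast marker remained at 30.5%, 26.3% and 20% of its ventricle level in isolated replicates 1, 2 and 3. After median-of-ratios scaling it remained at 56.1%, 48.4% and 29.1%.

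The wider matrix list gave 15 lower genes and 1 higher gene of 19 tested, beside 68.3% and 1.45% of all genes, and 9 lower and 1 higher under either of the median-of-ratios and quantile scalings. The basement membrane glycoprotein gene Nid1 had 7.73, 6.41 and 15.2 FPKM in isolated cells, against 67.9 and 51.2 FPKM in ventricle (difference -2.56 ± 0.28 SE, adjusted p = 5.3e-05), and the fibronectin gene Fn1 13.98, 10.8 and 20.2 FPKM, against 97.5 and 66.8 FPKM in ventricle (difference -2.39 ± 0.24 SE, adjusted p = 3.48e-05). Neither overlapped between the groups. Col4a1 and Col4a2, the type IV collagen chains, were listed at 0 in isolated replicate 1 only. Col4a1 had 0, 38.3 and 96.7 FPKM in isolated cells, against 249.7 and 179.7 FPKM in ventricle, and a 0 in a file without counts can be a failed estimate, so its place among the largest decreases (difference -3.76 ± 1.28 SE, adjusted p = 0.0202) rests on that value. Thbs1, the adhesive glycoprotein thrombospondin 1, was the exception in the list, with 19.7, 18.2 and 9.93 FPKM in isolated cells, against 6.42 and 4.69 FPKM in ventricle (difference 1.33 ± 0.26 SE, adjusted p = 0.00125; scaled difference 1.99, adjusted p = 0.0132).

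Macrophage genes were close to 0 in isolated cells. C1qa, a chain of complement C1q that resident macrophages secrete, had 0.0341, 0.0754 and 0.074 FPKM in isolated cells, against 10.2 and 8.10 FPKM in ventricle (difference -3.25 ± 0.18 SE, scaled difference -2.82). The sister chain C1qb had 0.0336, 0 and 0.0361 FPKM, against 7.68 and 5.98 FPKM in ventricle (difference -2.93). Csf1r, the receptor on which these cells depend, had 0.184, 0.119 and 0.200 FPKM, against 4.85 and 3.77 FPKM in ventricle (difference -2.18), and the mannose receptor Mrc1 0.110, 0.122 and 0.259 FPKM, against 4.43 and 4.70 FPKM in ventricle (difference -2.26). None of the 10 tested macrophage genes would have passed the filter in the isolated libraries alone, so they could only come out lower and their count of calls is not given. The median marker stood at 1.82%, 1.58% and 4.68% of its ventricle level on the deposited scale, and at 3.36%, 2.91% and 6.83% after median-of-ratios scaling. The leukocyte gene Ptprc was under the filter, at 0.0114 to 0.0699 FPKM in isolated cells, against 0.593 and 0.855 FPKM in ventricle. Neutrophil genes were also low. S100a9, a calcium-binding protein of these cells, had 0.309, 0.410 and 0.447 FPKM in isolated cells, against 7.58 and 6.64 FPKM in ventricle (difference -2.55). The 3 tested neutrophil genes were under 1 FPKM in every isolated library and likewise passed through ventricle only.

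Of 7 tested smooth muscle and pericyte genes 5 fell and 1 rose, beside 68.3% and 1.45% of all genes. After scaling 4 were lower and 1 higher, beside 12.7% and 14.9%. In the isolated libraries alone 6 of the 7 would have passed the filter. Myh11, Cnn1 and, from another list, Tagln were not called lower. Notch3, a receptor gene of mural cells, had 3.285, 2.94 and 3.53 FPKM, against 12.9 and 10.7 FPKM in ventricle (difference -1.59, adjusted p = 8.82e-05, scaled difference -0.93, adjusted p = 0.00497). Rgs5, a regulator of G protein signalling that marks pericytes, had 5.96, 5.79 and 16.2 FPKM in isolated cells, against 68.2 and 85.1 FPKM in ventricle (difference -3.05 ± 0.32 SE, adjusted p = 4.74e-05). Pdgfrb, the receptor for platelet-derived growth factor B on mural cells, had 2.67, 2.49 and 3.15 FPKM, against 17.8 and 14.2 FPKM in ventricle (difference -2.17), and Kcnj8, a potassium channel gene of pericytes, 0.913, 0.917 and 2.05 FPKM, against 10.2 and 8.58 FPKM in ventricle (difference -2.21). Myh11, the smooth muscle myosin heavy chain, had 6.39, 5.62 and 3.44 FPKM, against 3.56 and 2.63 FPKM in ventricle, a difference of 0.56 (adjusted p = 0.0469) in which replicate 3 overlapped ventricle. Tagln, a smooth muscle protein also made in fetal cardiomyocytes, had 29.3, 26.9 and 13.9 FPKM, against 15.8 and 8.73 FPKM in ventricle (difference 0.86, adjusted p = 0.0207), again with overlap in replicate 3. Cnn1, the third smooth muscle gene, had 4.99, 4.61 and 3.91 FPKM, against 7.31 and 5.21 FPKM in ventricle, and its difference of -0.39 missed the threshold (adjusted p = 0.0961).

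Epicardial genes were also split. Aldh1a2, the retinoic acid synthesis enzyme of the epicardium, had 2.61, 1.75 and 3.93 FPKM in isolated cells, against 17.7 and 14.6 FPKM in ventricle (difference -2.22 ± 0.24 SE, adjusted p = 4.85e-05), and the transcription factor Wt1 1.66, 1.10 and 3.40 FPKM, against 7.92 and 7.00 FPKM in ventricle (difference -1.54 ± 0.27 SE, adjusted p = 0.000702). Genes of the mesothelial surface differed less. Msln, encoding mesothelin, had 5.92, 4.38 and 9.22 FPKM, against 10.7 and 6.46 FPKM in ventricle, with a difference of -0.37 (adjusted p = 0.227) that was 0.29 after scaling and 0.33 after quantile normalization. Upk3b, a uroplakin, had 6.14, 4.12 and 8.83 FPKM, against 11.6 and 8.57 FPKM in ventricle, and its scaled difference was 0.04 (adjusted p = 0.898). Of 7 epicardial genes 4 fell on the deposited scale, beside 68.3% of all genes, and the list median of -0.59 was near the -0.62 of all genes. After scaling 2 were lower, Aldh1a2 and Wt1, beside 12.7% of all genes. Lymphocyte, lung and liver genes reached the filter in no case, in either group.

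**Figure D2:**
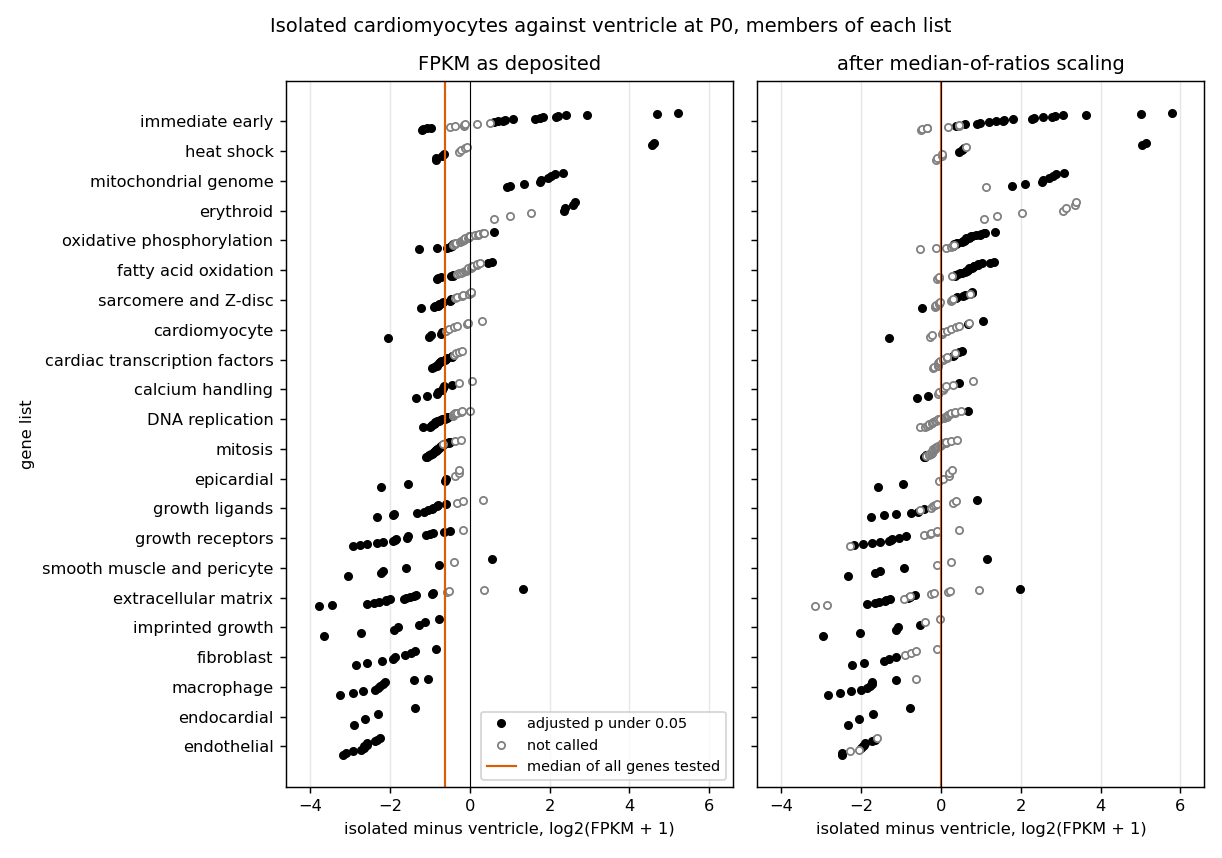
Difference of isolated from ventricle libraries at P0 for each tested member of the cell type and function lists, on the deposited FPKM scale (left) and after median-of-ratios scaling (right); a point is 1 gene, black where called, and the orange line is the median of all 12920 genes tested (-0.62 left, 0.01 right). Endothelial, macrophage and fibroblast genes lie left of that line on both sides and most oxidative genes right of it; mt-Co1, listed at 0 in all isolated libraries, lies off the axis.

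On the deposited scale genes of the cardiomyocyte itself moved with the typical gene rather than above it. Of 12 cardiomyocyte markers none was higher and 5 were lower on that scale, beside 1.45% and 68.3% of all genes. Their median was -0.55, beside -0.62 for all genes. After scaling 2 were higher and 1 lower, beside 14.9% and 12.7%, with a median of 0.20 beside 0.01. After quantile normalization 1 was higher and 4 lower, beside 12% and 12.4%. The median was then -0.51, below the 0.0127 of all genes. Tnnt2, cardiac troponin T, had 2209, 2259 and 2708 FPKM in isolated cells, against 4206 and 3553 FPKM in ventricle (difference -0.70 ± 0.20 SE, adjusted p = 0.00974; scaled difference 0.06, adjusted p = 0.793). Myl2, the ventricular regulatory light chain, had 6902, 6927 and 7440 FPKM, against 7455 and 7167 FPKM in ventricle, a difference of -0.04 (adjusted p = 0.851) that became 0.71 after scaling (adjusted p = 0.053). The first gene sat at the median and the second above it. Pln, the phospholamban that restrains the calcium pump of the sarcoplasmic reticulum, had 1634, 1726 and 1736 FPKM, against 1275 and 1480 FPKM in ventricle. It was higher in all 3 isolated libraries, with a difference of 0.31 (adjusted p = 0.147) and a scaled difference of 1.06 (adjusted p = 0.00878). Ryr2, the calcium release channel, had 60.7, 65.1 and 88.4 FPKM, against 148.0 and 138.5 FPKM in ventricle (difference -1.01 ± 0.18 SE, adjusted p = 0.000913; scaled difference -0.26, adjusted p = 0.0699).

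The beta cardiac myosin gene broke this pattern. Myh7, the slow isoform that dominates in fetal ventricle (chromosome 14, 55589524 to 55613471 in mm9 as deposited), had 554.6, 608.8 and 681.9 FPKM in isolated cells, against 2557 and 2516 FPKM in ventricle. The isolated cells thus carried 24.3% of the ventricle level, with no overlap, and the gene was lower on both scales (difference -2.05 ± 0.18 SE, adjusted p = 1.5e-05; scaled difference -1.29, adjusted p = 0.00356). Myh6, the alpha isoform that replaces it after birth, had 1517, 1565 and 2220 FPKM in isolated cells, against 3773 and 3132 FPKM in ventricle (difference -0.98 ± 0.22 SE, adjusted p = 0.00268), and its scaled difference was -0.22 (adjusted p = 0.323). The 2 genes lie next to each other on chromosome 14 and their sequences are alike. How reads were divided between them was not tested. Tnni1, slow skeletal troponin I and another fetal isoform, did not share the loss, with 881.9, 868.8 and 1036 FPKM in isolated cells, against 1282 and 1117 FPKM in ventricle (difference -0.37, adjusted p = 0.0846; scaled difference 0.39, adjusted p = 0.0485). Tnni3, its cardiac counterpart, had 1231, 1231 and 1472 FPKM, against 1832 and 1604 FPKM in ventricle (difference -0.39, adjusted p = 0.0782; scaled difference 0.37, adjusted p = 0.0707). Nppb, the brain natriuretic peptide gene, had 39.3, 37.0 and 46.5 FPKM in isolated cells, against 77.4 and 90.0 FPKM in ventricle (difference -1.02 ± 0.17 SE, adjusted p = 0.000554; scaled difference -0.27, adjusted p = 0.112).

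The lists of this paragraph are to be read beside the shares of all genes, 68.3% lower and 1.45% higher on the deposited scale. These shares were 12.7% and 14.9% after scaling, and 12.4% and 12% after quantile normalization. Among 19 sarcomere and Z-disc genes 11 fell and none rose on the deposited scale (median -0.48). After scaling 7 were higher and 1 lower (median 0.28), and after quantile normalization 1 higher and 2 lower (median -0.04). Flnc, the muscle filamin, was the largest fall, with 24.7, 27.6 and 40.4 FPKM in isolated cells, against 78.6 and 65.0 FPKM in ventricle (difference -1.22 ± 0.21 SE, adjusted p = 0.000642; scaled difference -0.47, adjusted p = 0.0348). Calcium handling genes gave 8 lower of 10 tested (median -0.68), 1 higher and 2 lower after scaling, and 1 higher and 4 lower after quantile normalization. Cardiac transcription factors gave 12 lower of 16 (median -0.60), 4 higher and none lower after scaling, and 1 higher and 2 lower after quantile normalization. Nkx2-5, a regulator of early heart development, had 48.7, 50.2 and 63.0 FPKM, against 77.0 and 55.5 FPKM in ventricle (difference -0.28, adjusted p = 0.191; scaled difference 0.47, adjusted p = 0.0306).

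Atrial genes showed that the 2 ventricle libraries were unequal. Myl7, the atrial regulatory light chain, had 82.1, 82.8 and 129.2 FPKM in isolated cells, against 459.4 and 70.6 FPKM in ventricle replicates 1 and 2. Sln, the atrial inhibitor of the calcium pump, had 9.78, 9.67 and 8.56 FPKM, against 45.5 and 2.27 FPKM, and Myl4, the atrial essential light chain, 65.0, 67.1 and 102.3 FPKM, against 378.8 and 139.0 FPKM. For Myl7 and Sln the isolated libraries lay between the 2 ventricle libraries. The difference of Myl7 was -0.91 (adjusted p = 0.135) and turned to 0.43 without ventricle replicate 1; that of Sln was -0.26 (adjusted p = 0.748) and turned to 1.66. None of the 7 atrial genes was lower after scaling, and 1 was higher, Nppa, the atrial natriuretic peptide gene, with 318.3, 316.6 and 336.1 FPKM, against 375.3 and 143.5 FPKM in ventricle (scaled difference 1.23, adjusted p = 0.0418).

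Nuclear genes of energy metabolism lay above the typical gene, by an amount that depended on the scaling. Of all genes 1.45% were higher and 68.3% lower on the deposited scale. These shares were 14.9% and 12.7% after scaling, and 12% and 12.4% after quantile normalization. Of 28 oxidative phosphorylation genes 1 was higher and 7 lower on the deposited scale, with a median of -0.18 beside -0.62 for all genes; after scaling 22 were higher and none lower (median 0.58), and after quantile normalization 7 were higher and 1 lower (median 0.0653, beside 0.0127 for all genes). Of 24 fatty acid oxidation genes 2 were higher and 6 lower (median -0.08); after scaling 20 were higher and none lower (median 0.67), and after quantile normalization 12 and none (median 0.32). Cox5a, a subunit of cytochrome c oxidase, had 401, 424.8 and 480.9 FPKM in isolated cells, against 359.1 and 226.4 FPKM in ventricle (difference 0.61 ± 0.20 SE, adjusted p = 0.0198; scaled difference 1.36, adjusted p = 0.00534). Ech1, an enzyme that prepares unsaturated fatty acids for oxidation, had 262.2, 269.3 and 257.8 FPKM, against 181.4 and 173.4 FPKM in ventricle (difference 0.57 ± 0.16 SE, adjusted p = 0.00734; scaled difference 1.32, adjusted p = 0.00403). Both were higher in every isolated library. Decr1, another enzyme of that step, had 96.8, 98.99 and 95.7 FPKM, against 71.4 and 68.5 FPKM in ventricle (difference 0.47, adjusted p = 0.0165). Cpt1a, the carnitine acyltransferase isoform of liver and fetal heart, was lower, with 20.6, 21.3 and 23.4 FPKM in isolated cells, against 42.9 and 35.7 FPKM in ventricle (difference -0.82 ± 0.17 SE, adjusted p = 0.00152; scaled difference -0.09, adjusted p = 0.53).

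Glycolysis genes stood between these lists and the non-muscle markers. Of 19 tested 13 fell and none rose (median -0.50), near the 68.3% and 1.45% of all genes. After scaling 6 were higher and 2 lower (median 0.25), beside 14.9% and 12.7% of all genes. Quantile normalization gave 2 higher and 4 lower (median -0.0975), beside 12% and 12.4%. The lactate transporter gene Slc16a3 had 4.05, 4.65 and 6.79 FPKM in isolated cells, against 15.6 and 12.2 FPKM in ventricle (difference -1.29 ± 0.22 SE, adjusted p = 0.000588; scaled difference -0.62, adjusted p = 0.0218). Ldhb, the lactate dehydrogenase subunit of heart, had 129.3, 130.6 and 159.5 FPKM, against 297.2 and 288.9 FPKM in ventricle (difference -1.07, adjusted p = 0.000393; scaled difference -0.31, adjusted p = 0.0302). These were the 2 members lower on both scales.

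Imprinted growth genes fell in 7 of 7 cases, beside 68.3% of all genes, and 5 of them after scaling, beside 12.7%. Dlk1, a paternally expressed transmembrane relative of Notch ligands, had 4.03, 2.35 and 6.80 FPKM in isolated cells, against 73.8 and 53.1 FPKM in ventricle (difference -3.65 ± 0.29 SE, adjusted p = 7.87e-06; scaled difference -2.96, adjusted p = 0.00356). Cdkn1c, a maternally expressed inhibitor of cyclin-dependent kinases, had 4.92, 4.09 and 6.26 FPKM, against 42.3 and 35.3 FPKM in ventricle (difference -2.72 ± 0.20 SE, adjusted p = 4.27e-06; scaled difference -2.02, adjusted p = 0.000886). Igf2, the fetal growth factor, had 152.3, 152.2 and 240.6 FPKM, against 753.3 and 579.6 FPKM in ventricle (difference -1.89 ± 0.22 SE, adjusted p = 8.33e-05). All 3 were lower in each isolated library, at 6.92%, 13.1% and 27.3% of the mean ventricle level. Plagl1, a zinc finger factor of the same imprinted network, was at the typical gene, with 59.1, 55.1 and 76.1 FPKM, against 101.9 and 113.2 FPKM in ventricle (difference -0.76, adjusted p = 0.00309; scaled difference -0.01, adjusted p = 0.931).

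Growth factor receptors fell in 15 of 16 cases, beside 68.3% of all genes. After scaling 9 were lower, beside 12.7%. Of the 16, 13 would have passed the filter in the isolated libraries alone. The rest, Ednrb among them, passed only with ventricle values counted, which favours lower calls. Several of the 16 are also endothelial or mural markers. Igf1r, a receptor of insulin-like growth factors, had 4.70, 4.90 and 6.86 FPKM in isolated cells, against 19.7 and 16.2 FPKM in ventricle (difference -1.56 ± 0.20 SE, adjusted p = 0.000138; scaled difference -0.87, adjusted p = 0.00512). Ednrb, an endothelin receptor, had 0.793, 0.672 and 3.45 FPKM, against 15.6 and 14.2 FPKM in ventricle (difference -2.74, adjusted p = 0.000109). The neuregulin receptors of the heart were nearer to the typical gene. Erbb2, the co-receptor that controls neonatal cardiomyocyte division in the mouse, had 5.89, 6.01 and 8.72 FPKM in isolated cells, against 15.1 and 12.5 FPKM in ventricle (difference -0.93 ± 0.20 SE, adjusted p = 0.00234; scaled difference -0.24, adjusted p = 0.144). Erbb4, the ligand-binding partner, had 3.68, 3.93 and 5.42 FPKM, against 4.17 and 5.86 FPKM in ventricle, with overlap between the groups (difference -0.17, adjusted p = 0.474; scaled difference 0.44, adjusted p = 0.0824). The ligand gene Nrg1, made by endothelium and endocardium, was under the filter, at 0 to 0.290 FPKM in isolated cells, against 0.807 and 0.987 FPKM in ventricle.

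Growth factor ligands fell in 11 of 14 cases, beside 68.3% of all genes. After scaling 6 were lower and 1 higher, beside 12.7% and 14.9%. Of the 14, 11 would have passed the filter in the isolated libraries alone. The rest, Pdgfb among them, passed only with ventricle values counted. Pdgfb, an endothelial signal to pericytes, had 0.913, 0.755 and 4.48 FPKM in isolated cells, against 13.5 and 11.1 FPKM in ventricle (difference -2.32 ± 0.38 SE, adjusted p = 0.000503), and the chemokine gene Cxcl12 15.2, 14.1 and 18.0 FPKM, against 39.7 and 32.5 FPKM in ventricle (difference -1.15, adjusted p = 0.000381). In the interleukin 4 and 13 pathway, Il4ra, the receptor chain both cytokines share, had 0.587, 1.01 and 2.04 FPKM in isolated cells, against 4.796 and 4.09 FPKM in ventricle (difference -1.35 ± 0.24 SE, adjusted p = 0.000894; scaled difference -0.84, adjusted p = 0.0427). Il13ra1, the partner chain that binds interleukin 13, had 13.5, 14.2 and 17.8 FPKM, against 17.9 and 18.1 FPKM in ventricle (difference -0.24, adjusted p = 0.229; scaled difference 0.47, adjusted p = 0.0113). Relative to the typical gene the first was thus lower and the second higher.

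Cell cycle genes differed about as much as the typical gene. On the deposited scale 68.3% of all genes were lower, and after scaling 12.7% were lower and 14.9% higher. Mitosis genes fell in 27 of 30 cases on the deposited scale (median -0.80), but 3 were lower and none higher after scaling (median -0.16). DNA replication genes fell in 17 of 26 cases (median -0.66), with none lower and 1 higher after scaling (median -0.05). Cdc20, an activator of the anaphase-promoting complex, had 4.44, 4.91 and 5.48 FPKM in isolated cells, against 11.9 and 11.3 FPKM in ventricle (difference -1.09 ± 0.18 SE, adjusted p = 0.00054; scaled difference -0.42, adjusted p = 0.0243). Top2a, the topoisomerase of dividing cells, had 13.2, 14.1 and 24.0 FPKM, against 29.9 and 35.6 FPKM in ventricle (difference -0.94, adjusted p = 0.00405; scaled difference -0.22, adjusted p = 0.397). Ccnb1, cyclin B1, had 2.85, 3.11 and 3.35 FPKM, against 6.58 and 5.82 FPKM in ventricle (difference -0.81, adjusted p = 0.00265; scaled difference -0.19, adjusted p = 0.225). Mki67, the proliferation antigen Ki-67, overlapped, with 4.83, 5.33 and 8.49 FPKM, against 6.399 and 16.2 FPKM in ventricle (difference -0.68, adjusted p = 0.067). Replicate 3 was highest of the 3 for most replication genes, such as the helicase subunit Mcm6, with 10.2, 9.30 and 18.97 FPKM in isolated cells, against 24.2 and 22.2 FPKM in ventricle. Endothelial markers were also highest in that library, and their part in the cell cycle values was not tested. Without replicates 1 and 2, no replication gene and 9 of 30 mitosis genes were called lower.

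To ask where the neonatal program of the ventricle lies, 1746 genes were chosen that were at least 2-fold higher in ventricle at P4 than in adult ventricle, from 14 ventricle libraries that exclude both P0 groups. Of the 1732 that passed the filter at P0, 6 were higher in isolated cells and 1381 lower (79.7%, beside 68.3% of all genes), with a median of -0.78. After scaling 115 were higher (6.64%, beside 14.9%) and 434 lower (25.1%, beside 12.7%), with a median of -0.14. Of 661 adult genes, chosen the other way round, only 469 passed the filter at P0, a larger loss than in the neonatal set. Of these, 31 were higher and 205 lower (43.7%), with a median of -0.37. After scaling 147 were higher (31.3%) and 36 lower (7.68%), with a median of 0.27. How far the filter shaped the adult values was not tested. The neonatal median thus lay on the ventricle side of the typical gene and the adult median on the isolated side. The neonatal set holds the mitochondrial gene mt-Co1, at 17350 and 18210 FPKM in P4 ventricle. It was listed at 0 in adult ventricle and in the isolated P0 libraries alike. Hist1h2ao, also in the set, was likewise low in both, as given below. Whether library processing shared by adult ventricle and isolated cells moved other genes of the 2 sets was not tested.

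The decreases were uneven within the set. After scaling, 136 neonatal genes (7.85%) were lower by at least 1 (log2), beside 3.68% of all genes, while 1263 (72.9%) lay within 0.5 of no difference, beside 78% of all genes. Among the 26 neonatal genes that are also in the endothelial, endocardial, mural, fibroblast, epicardial, macrophage or matrix lists, 16 (61.5%) were lower by at least 1. Among the 56 in the replication or mitosis lists none was, and 54 (96.4%) lay within 0.5. Most neonatal genes, those of dividing cells included, thus differed little more than the typical gene, and the neonatal genes with large decreases included Dlk1, Cdkn1c, Cdh5, Aplnr, Plxnd1 and Tcf21, whose values are given above. Hist1h2ao and Hist1h2ap, which passed the filter through ventricle only, carried identical values, 0.0475, 0.129 and 0.209 FPKM in isolated cells, against 21.92 and 20.02 FPKM in ventricle (difference -4.28 ± 0.18 SE). These are near-identical copies of a histone gene whose reads cannot be assigned to one of them. Low values were not particular to isolated cells: Hist1h2ao had 0.566 and 0.647 FPKM in sham ventricle at day 1, 0.140 and 0.273 FPKM in resected ventricle at day 1, and 0.173 and 0.188 FPKM in adult ventricle. The 70 histone cluster models, looked at after these values were seen, summed to 62.5 to 69.3 FPKM in isolated cells and 118.9 to 137.3 FPKM in ventricle, with 6 of 14 tested lower.

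**Figure D3:**
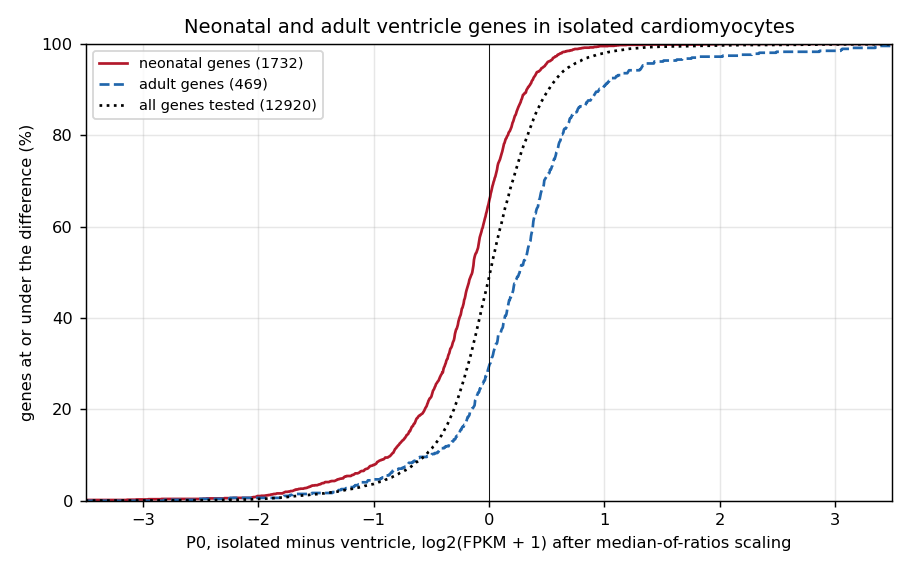
Cumulative share (%) of genes at or under each difference of isolated from ventricle libraries at P0 after median-of-ratios scaling, for 1732 neonatal genes (red), 469 adult genes (blue, dashed) and all 12920 genes tested (black, dotted). The medians are -0.14, 0.27 and 0.01; the neonatal curve lies left and the adult curve right of that of all genes over most of the range.

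The neonatal genes called higher in isolated cells were 6, of which 2 are unnamed gene models. Beside Thbs1, they included Cox6b2, a subunit of cytochrome c oxidase best known from testis, with 6.50, 6.69 and 7.97 FPKM, against 4.89 and 4.65 FPKM in ventricle (difference 0.48, adjusted p = 0.034). Itgb1bp3, a muscle gene, had 13.3, 12.6 and 15.6 FPKM, against 9.08 and 9.79 FPKM in ventricle (difference 0.50, adjusted p = 0.0224). Neither Cox6b2 nor Itgb1bp3 overlapped between the groups.

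The largest increases were in immediate early genes and in the inducible Hsp70 genes. Of 25 immediate early genes tested 14 rose and 4 fell on the deposited scale, beside 1.45% and 68.3% of all genes. After scaling 18 were higher and none lower, beside 14.9% and 12.7%. Fos, a subunit of the AP-1 transcription factor (chromosome 12, 86814839 to 86818223 in mm9 as deposited), had 83.7, 74.7 and 170.1 FPKM in isolated cells, against 2.02 and 1.52 FPKM in ventricle, 61.8-fold by the means (difference 5.22 ± 0.28 SE, adjusted p = 4.05e-07). Fosb, its close relative, had 22.8, 20.9 and 49.6 FPKM, against 0.122 and 0.200 FPKM in ventricle (difference 4.68 ± 0.30 SE, adjusted p = 1.73e-06). Egr1, a zinc finger factor, had 65.7, 57.6 and 111.5 FPKM, against 9.97 and 8.07 FPKM in ventricle (difference 2.93 ± 0.24 SE, adjusted p = 1.15e-05). Replicate 3 was the highest isolated library for each, and no gene overlapped between the groups.

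Junb, another AP-1 subunit, had 23.7, 20.7 and 47.5 FPKM in isolated cells, against 5.27 and 4.03 FPKM in ventricle (difference 2.40, adjusted p = 9.46e-05). Nr4a1, an orphan nuclear receptor, had 23.4, 18.5 and 47.3 FPKM, against 5.90 and 4.50 FPKM (difference 2.21, adjusted p = 0.000189), and the stress factor Atf3 14.8, 14.8 and 33.9 FPKM, against 4.13 and 3.14 FPKM (difference 2.16, adjusted p = 0.0002). The matricellular gene Cyr61 and the mRNA decay factor gene Zfp36 rose by 1.84 and 1.65. The 4 that fell were Klf2, Klf6, Rhob and Myc, of which the first is a flow-responsive factor of endothelium. Klf2 had 6.22, 5.73 and 17.4 FPKM, against 22.8 and 19.2 FPKM in ventricle (difference -1.19, adjusted p = 0.00881; scaled difference -0.49, adjusted p = 0.321), with replicate 3 again nearest to ventricle. Cxcl1, a chemokine gene, was the 1 of 7 tested inflammatory genes that rose, with 1.83, 1.14 and 4.82 FPKM, against 0.669 and 0.320 FPKM in ventricle (difference 1.14, adjusted p = 0.00815).

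Hspa1a and Hspa1b, which encode the inducible Hsp70 chaperone, rose by 4.55 ± 0.33 (SE, adjusted p = 4.29e-06) and 4.60 ± 0.30 (SE, adjusted p = 2.13e-06). Hspa1a had 34.3, 30.9 and 83.2 FPKM in isolated cells, against 1.196 and 0.719 FPKM in ventricle, and Hspa1b 46.5, 40.6 and 99 FPKM, against 1.67 and 1.16 FPKM in ventricle. The 2 genes are near-identical copies, so the division of reads between them is uncertain. No other heat shock gene of the 10 tested was higher on the deposited scale, where 1.45% of all genes were. With median-of-ratios scaling 5 of the 10 were higher, beside 14.9% of all genes, and quantile normalization gave 4, beside 12%. Hspa8, the constitutive member, had 12.4, 11.6 and 16.7 FPKM, against 30.4 and 20.2 FPKM in ventricle (difference -0.84, adjusted p = 0.00476; scaled difference -0.12, adjusted p = 0.566).

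**Figure D4:**
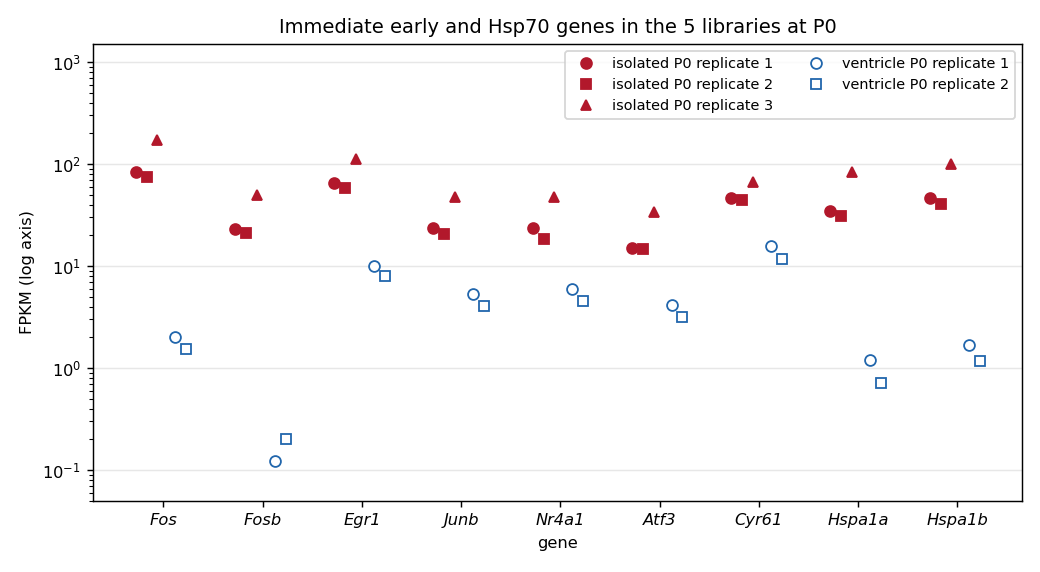
FPKM (log axis) of 7 immediate early genes and the 2 inducible Hsp70 genes in the 3 isolated P0 libraries (red, filled) and the 2 ventricle P0 libraries (blue, open); each point is 1 library. All isolated values lie above all ventricle values for each of the 9 genes, and replicate 3 is the highest isolated library.

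Because these genes moved together, the 150 bases before their annotated start are shown for 7 of them, from RefSeq on build GRCm38.p6, each in the sense of its own gene. They were searched on both strands for TGACG, the core of the cAMP response element that CREB and ATF factors bind, and, in the Hsp70 genes, for GAANNTTC, a pair of the inverted repeats of the heat shock element. Matches are in capitals, with CGTCA where TGACG lies on the other strand. Of 32851 promoter windows of the same length 13.3% hold TGACG and 3.9% GAANNTTC.
Fos, chr12:85473740-85473889, plus strand: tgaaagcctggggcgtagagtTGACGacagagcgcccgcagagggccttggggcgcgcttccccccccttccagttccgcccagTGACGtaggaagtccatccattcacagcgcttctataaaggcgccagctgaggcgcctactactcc
Fosb, chr7:19310046-19310195, minus strand: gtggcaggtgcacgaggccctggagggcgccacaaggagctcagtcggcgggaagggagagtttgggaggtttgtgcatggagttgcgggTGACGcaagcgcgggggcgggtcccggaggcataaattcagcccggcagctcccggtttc
Junb, chr8:84978749-84978898, minus strand: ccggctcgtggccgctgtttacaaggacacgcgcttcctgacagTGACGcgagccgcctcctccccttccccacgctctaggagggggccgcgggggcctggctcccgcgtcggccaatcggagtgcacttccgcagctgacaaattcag
Nr4a1, chr15:101266696-101266845, plus strand: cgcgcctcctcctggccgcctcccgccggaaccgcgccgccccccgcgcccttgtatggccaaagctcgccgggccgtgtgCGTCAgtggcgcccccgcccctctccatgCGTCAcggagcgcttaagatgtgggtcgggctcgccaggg
Atf3, chr1:191183334-191183483, minus strand: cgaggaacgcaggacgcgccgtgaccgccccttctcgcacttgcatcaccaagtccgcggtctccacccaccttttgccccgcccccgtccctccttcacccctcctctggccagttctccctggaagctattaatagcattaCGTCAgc
Hspa1a, chr17:34972157-34972306, minus strand: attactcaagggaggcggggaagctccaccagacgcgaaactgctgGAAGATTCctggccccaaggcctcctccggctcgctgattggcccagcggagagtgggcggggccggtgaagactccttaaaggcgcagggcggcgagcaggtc
Hspa1b, chr17:34959239-34959388, minus strand: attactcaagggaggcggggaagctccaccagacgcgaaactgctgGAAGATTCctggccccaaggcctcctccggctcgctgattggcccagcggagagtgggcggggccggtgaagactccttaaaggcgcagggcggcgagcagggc

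Each of the 5 AP-1, nuclear receptor and Atf3 windows held TGACG at least once, with 2 matches each for Fos and Nr4a1. The Hspa1a and Hspa1b windows held 1 GAANNTTC each and were identical at 149 of 150 bases. The window of Cyr61 held TGACG once and is not printed, and that of Egr1 was not analysed here. The windows were picked by how the genes moved, and a match describes these letters and not a bound site.

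Fos was also high in the other freshly isolated libraries of the series. It lay between 90.7 and 147.2 FPKM in isolated P4 cells, between 153.8 and 249.5 FPKM in isolated sham cells at day 7, between 150.2 and 306.3 FPKM in isolated cells after resection at day 7, and between 211.6 and 242.9 FPKM in explanted cells at 0 h. In explants at 24 h, 48 h and 72 h it lay between 2.10 and 6.25 FPKM. From 0 h to 72 h the explant mean also went from 24.3 to 0.263 FPKM for Fosb and from 124.9 to 3.24 FPKM for Egr1. For Nr4a1 it went from 40.6 to 9.15 FPKM. Junb, Atf3 and Hspa1a did not share this pattern. Junb lay between 74.7 and 120.8 FPKM in explants at 24 h and between 67.4 and 71.1 FPKM at 72 h. Atf3 lay between 59.4 and 127.7 FPKM over these times. Hspa1a lay between 19.2 and 22.2 FPKM at 0 h, between 2.02 and 2.07 FPKM at 24 h and between 42.7 and 50.6 FPKM at 72 h. Across the 8 ventricle groups Fos stayed between 0.64 and 9.33 FPKM. For Fos, no freshly isolated library overlapped a ventricle library. The part of dissociation in these values was not tested, since every isolated library went through it.

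Red cell transcripts were raised in isolated replicates 1 and 2, and transcripts of the mitochondrial genome in all 3 isolated libraries. The beta globin gene Hbb-b1 had 8201, 8268 and 382.3 FPKM in isolated cells, against 594.3 and 539.5 FPKM in ventricle, so replicate 3 lay below ventricle and the other two far above. Hba-a1, an alpha globin, had 3441, 3631 and 170.7 FPKM, against 249.9 and 180.0 FPKM in ventricle, and Alas2, the first enzyme of heme synthesis in red cells, 127.9, 144.2 and 10.3 FPKM, against 11.0 and 10.3 FPKM in ventricle. On the deposited scale 4 of 7 erythroid genes were higher, beside 1.45% of all genes, and none after scaling, beside 14.9%. Without ventricle replicate 1 or 2 the higher ones numbered 2 and 1. Without isolated replicates 1 and 2 none was higher and Hbb-b1 turned to -0.57. Car3, a carbonic anhydrase gene of adipose tissue and muscle, followed the same replicates, with 9.402, 8.02 and 1.59 FPKM, against 0.557 and 0.349 FPKM in ventricle (difference 2.11, adjusted p = 0.00176), while the other 5 adipocyte genes were under the filter.

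Of 10 listed protein-coding genes of the mitochondrial genome that were tested, 9 were higher and 1 lower, beside 1.45% and 68.3% of all genes. After scaling 8 were higher, beside 14.9% of all genes, and after quantile normalization 3, beside 12%. Without isolated replicates 1 and 2, 2 were higher. The cytochrome b gene mt-Cytb had 46880, 47350 and 26680 FPKM in isolated cells, against 6075 and 9958 FPKM in ventricle (difference 2.33 ± 0.32 SE, adjusted p = 0.000212). The cytochrome c oxidase gene mt-Co2 had 83950, 77890 and 44580 FPKM, against 11630 and 19790 FPKM in ventricle (difference 2.13, adjusted p = 0.000505). The lower gene of the 10 was mt-Co1, listed at 0 in all 3 isolated libraries, against 13040 and 15270 FPKM in ventricle. It was also at 0 in other libraries of the series that hold large amounts of mt-Co2, so the 0 is reported as listed and no fold is given. Outside the list, the mitochondrial gene mt-Tc was also lower, with 8.98, 14.75 and 10.8 FPKM in isolated cells, against 133.8 and 111.2 FPKM in ventricle. Its difference was -3.32 (adjusted p = 1.19e-06) and its scaled difference -2.59 (adjusted p = 0.00307).

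**Figure D5:**
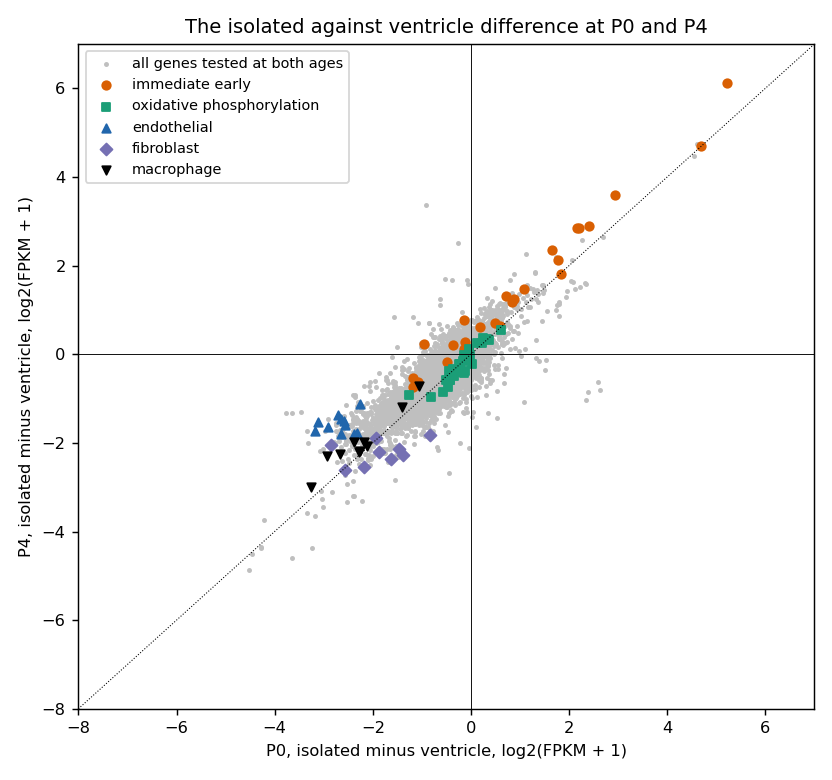
Difference of isolated from ventricle libraries at P4 (vertical) against that at P0 (horizontal), both on the deposited log2(FPKM + 1) scale, for all genes tested at both ages (gray) and for 5 gene lists (coloured); the dotted line marks equal differences and mt-Co1 lies off the axes. The immediate early genes with the largest increases lie at the upper right and endothelial, fibroblast and macrophage genes at the lower left.

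At P4 the same comparison could be repeated in libraries that the P0 comparison does not share, 3 of isolated cells against 2 of ventricle. There 214 genes were higher (1.65% of 12955 tested) and 6366 lower (49.1%), with a median of -0.51, and after scaling 201 were higher (1.55%) and 130 lower (1%). Of the genes higher at P0 106 were higher at P4 as well, 56.7% of the P0 calls and 49.5% of the P4 calls. Immediate early genes rose in 15 of 26 cases, fibroblast markers fell in 9 of 9 and endothelial markers in 1 of 11. After scaling these counts were 13 of 26, 1 of 9 and none of 11. The differences of endothelial genes at P4 ran from -1.81 to -1.12, beside -3.17 to -2.26 at P0. Myh7 differed by -0.62 at P4 (adjusted p = 0.125), beside -2.05 at P0, and Dlk1 by -1.32 (adjusted p = 0.0115), beside -3.65. The interaction contrast, which tests whether the difference itself changed between P0 and P4, called none of 13393 genes (limma, 0% in either direction; smallest adjusted p 0.237), and 463 had an unadjusted p under 0.05; after scaling none was called and 400 had one. For Myh7 the adjusted interaction p was 0.969. The P4 calls rest on both ventricle libraries: without either one, 2 or 3 genes were higher and none lower.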

How the data were processed

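Gene expression was deposited as one table of FPKM for 36128 gene models in 36 libraries, without counts, and the sequencing depth behind a value cannot be stated. Per the submitters' processing notes, the authors used build mm9, with TopHat 1.3.2 and Bowtie 0.12.7 as well as Cuffdiff and Cufflinks 1.2.1 among their tools; the annotation is not given in the sources used here. FPKM is relative to each library's mapped fragments, so a few abundant transcripts lower all others.

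From the deposited FPKM, log2(FPKM + 1) was fitted with limma 3.58.1 (R 4.3.3, variance trend) on the 3 isolated and 2 ventricle P0 libraries, for genes of at least 1 FPKM in 2 libraries, with Benjamini-Hochberg adjustment over all genes tested. The fit has 3 residual degrees of freedom. An exact permutation test of 3 against 2 cannot go below 0.1 and was not used. The same fit was made at P4, and an interaction contrast compared both ages. Neonatal and adult genes came from ventricle P4 against adult ventricle. Other scalings, filters, pseudocounts and left-out libraries were tried, some added after seeing the data. The scripts were tested on simulated data. Promoters were read from RefSeq. Named genes were drawn from the 15 largest called increases and 15 largest decreases among annotated genes with non-overlapping replicates and a mean of at least 5 FPKM in the higher group, up to 4 called members of each list with the largest change, the neonatal genes that moved most, and a set list of cardiac genes; further members were picked with the values in view. The members and lists were chosen with earlier results of these data known. Listed genes with no entry in the table were not analysed here. A few results are not reported here.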

Additional observations from a re-analysis of the deposited data

How the results depend on the processing

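Depth is unknown, and 3 against 2 libraries limit the precision. On the deposited scale 187 genes were higher and 8820 lower. Scaling moved these counts most. Higher and lower calls numbered 1928 and 1640 (median-of-ratios), 1547 and 1608 (quantile), 324 and 6464 after rescaling without globin and mitochondrial genes, and 972 and 3528 when the nuclear copies were also left out, an alternative chosen after seeing the data. A 2-fold minimum gave 72 and 1968, a single fit over all 36 libraries 103 higher, and leaving out both globin-rich libraries, also chosen after seeing the data, 3612 lower. Leaving out 1 library gave 103 to 212 higher and 5027 to 10293 lower.

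Neonatal genes higher (6) and lower (1381) became 115 and 434 (median-of-ratios), 80 and 429 (quantile), and 44 and 698 without nuclear copies. They were 2 and 529 with a 2-fold minimum, 11 and 891 for the set from P7, and 0 and 257 for the 4-fold set. Higher genes were 10 after rescaling, 3 with isolated replicates 1 and 2 averaged (added after seeing the data), 1 in the fit over 36 libraries and 3 in the fit over P0 and P4; 749 were lower without the globin-rich libraries. Leaving out 1 library gave 3 to 8 higher and 1007 to 1541 lower. At P4, lower calls (6366) were 130, 157 and 2595 after the 3 scalings in the same order, and leaving out 1 library gave 2 to 327 higher and 0 to 6678 lower. The interaction called 14 genes with no filter and 0 to 1 with 1 library left out.

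Replicate numbers did not pair the P0 samples (r = 0.02 across genes between same-numbered deviations). The replicate block gave 272 higher and 10545 lower at P0, 11 neonatal genes higher, 349 higher at P4, and -0.13 for Xist.

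Some differences changed sign. With median-of-ratios scaling Upk3b was 0.0429, Msln 0.29, Myl2 0.71, Myl3 0.69, Tnnt2 0.0612, Tnni3 0.37, Tnni1 0.39, Atp2a2 0.0348, Actc1 0.24, Sln 0.40, Gata4 0.30, Nkx2-5 0.47, Erbb4 0.44, Igf1 0.37 and Il13ra1 0.47. After quantile normalization Upk3b was 0.0716, Msln 0.33, Sln 0.38, Gata4 0.0827, Nkx2-5 0.25, Mki67 0.0076, Erbb4 0.51, Igf1 0.36 and Il13ra1 0.42. After rescaling Myl2 was 0.17, Myl3 0.14 and Erbb4 0.006. Without nuclear copies Msln was 0.0868, Myl2 0.48, Myl3 0.45, Tnni3 0.13, Tnni1 0.15, Actc1 0.0079, Sln 0.21, Gata4 0.0697, Nkx2-5 0.23, Erbb4 0.25, Igf1 0.16 and Il13ra1 0.25. Without the globin-rich libraries Hbb-b1 was -0.57, Hbb-b2 -0.28, Hba-a1 -0.31, Alas2 -0.0419, Msln 0.13, Myl2 0.0256, Myl3 0.12 and Erbb4 0.11. With 1 library left out, Myl3 lay between -0.25 and 0.10, Myl7 between -2.25 and 0.43, Sln between -2.17 and 1.66, Nppa between -0.21 and 1.17, Erbb4 between -0.37 and 0.0352, and Xist reached -0.13. Apart from the scalings, the cause of these changes was not tested.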
